A study of Homo sapiens with 2 samples.

Results

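The subject is the microRNA genes that drew reads in Nanopore direct RNA sequencing of polyadenylated RNA from a human mammary epithelial line. The members were chosen by their Nanopore count: every gene of type miRNA in GENCODE release 44 with a count of at least 1 in the Nanopore table, matched by Ensembl identifier in the Illumina table. That rule gave 107 genes of the 1877 microRNA genes in the tables, which is 5.70% of them, against 26.7% of all 58735 genes with at least 1 Nanopore count. Their Nanopore counts, and any ratio made from them, are therefore given as a description without a test.

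The cells were MCF10a-Snail-ER, a derivative of the non-tumorigenic MCF10a line that stably carries the transcription repressor Snail fused to the estrogen receptor. Both libraries came from cells given 100 nM tamoxifen, which activates the fusion and drives epithelial-to-mesenchymal transition (EMT); the exposure lasted 1 day, and no untreated library was compared here. Matched polyadenylated RNA was read on 2 platforms, with 1 library each: a direct RNA library, in which native RNA strands are read through a pore from the poly(A) end, and a stranded mRNA library of short Illumina reads from fragmented, amplified cDNA. With no replicate, intervals cover counting error only, and every statement compares these 2 libraries. The basal epithelial genes KRT5 (680 Nanopore and 277508 Illumina counts), KRT14 (322 and 117214) and EGFR (51 and 36245) were present. Of 5 markers of other lineages, 0 had a Nanopore count; by Illumina the endothelial gene PECAM1 had 973 counts, the fibroblast gene COL1A1 946, the leukocyte gene PTPRC 2, and CD3E and DES 0.

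A microRNA starts as a hairpin in a longer primary transcript. In the canonical pathway DROSHA and its partner DGCR8 cut the hairpin out in the nucleus, XPO5 exports it, DICER1 trims it to a duplex of short strands, and an Argonaute protein such as AGO2 carries the chosen strand to target mRNAs, which it recognises through the seed. Many hairpins lie in introns or exons of other genes and are transcribed with them. A mature microRNA has no poly(A) tail, so a poly(A) library reads longer transcripts that run through the hairpin. A count for a microRNA gene in these tables is thus a count over the hairpin's interval, not a level of the mature microRNA.

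Mature sequences are shown for the members whose counts the results turn on, 5′ to 3′, with the seed (bases 2 to 8) in capitals. They come from RefSeq on GRCh38.p14, and 87 members had a mature entry there.
hsa-miR-1244 (MIR1244-1 and MIR1244-2, the same sequence at both genes): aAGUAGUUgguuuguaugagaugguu
hsa-miR-1282: uCGUUUGCcuuuuucugcuu
hsa-miR-4709-5p: aCAACAGUgacuugcucuccaa
hsa-miR-4709-3p: uUGAAGAGgaggugcucuguagc
hsa-miR-4721: uGAGGGCUccaggugacggugg
hsa-miR-3652: cGGCUGGAggugugagga
hsa-miR-3661: uGACCUGGgacucggacagcug
hsa-miR-4444 (MIR4444-1): cUCGAGUUggaagaggcg
hsa-miR-3654: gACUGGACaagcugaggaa
hsa-miR-1181: cCGUCGCCgccacccgagccg
hsa-miR-3198 (MIR3198-2): gUGGAGUCcuggggaauggaga
hsa-miR-205-5p: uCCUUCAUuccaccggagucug
hsa-miR-4647: gAAGAUGGugcugugcugaggaa
hsa-miR-4426: gAAGAUGGacguacuuu

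Seeds could be compared only for the 87 members with a mature entry, and few of these shared one. Their 125 mature entries held 122 distinct seeds, and 3 seeds were shared by more than 1 member. One was AGUAGUU of miR-1244. Another was AAGAUGG of miR-4647 and miR-4426, whose genes had 21 and 1 Nanopore counts. The last was CUGCAGC of miR-1184, whose genes MIR1184-1 and MIR1184-3 had 2 and 1. MIR1244-3, a member with the same hairpin as MIR1244-1, had no mature entry and was not compared.

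Nanopore counts were concentrated in few members. The 107 genes held 2123 of 403235 Nanopore counts, 0.526% of the library (95% Wilson interval 0.505 to 0.549%), and the highest 2, MIR7705 and MIR1244-1, held 51.3% of that sum. A single count was recorded for 54 members, 2 to 9 counts for 28 and 10 or more for 25. The genes with 1 count lie just inside the rule, and the 1770 microRNA genes with 0 counts just outside it. At this depth 1 count was 2.48 counts per 1000000 (CPM), and a count of 0 allowed up to 7.44 CPM (3 counts). The members were short, 53 to 180 bases with a median of 81.

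In the Illumina library, which was deeper at 191741714 counts, 27 of the 107 members had any count, or 25.2%, and 15 had 10 or more. Among all genes with at least 1 Nanopore count the share was 95.9%. The members held 2076 Illumina counts, 0.00108% of that library (95% Wilson interval 0.00104 to 0.00113%), where 1 count was 0.00522 CPM. Of the 25 members with 10 or more Nanopore counts, 17 had 0 Illumina counts. The 2 libraries therefore ranked the members differently: the highest 2 by Nanopore had no Illumina count, and the highest by Illumina, MIR3652 with 530 counts, was seventh by Nanopore. The sources used here do not give how reads over both a microRNA gene and its containing gene were assigned in either table, or whether alike in both. An Illumina count of 0 inside an exon therefore does not show that no read covered the hairpin, and what such reads contributed was not tested. Whether exons or whole gene bodies were counted is not given either. That bears on every comparison of exonic with intronic genes and on every share of a containing gene's count, and was not tested.

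The platforms were compared as a log2 ratio of CPM, with 1 CPM added to each value and Nanopore in the numerator. It was above 0 in all 107 members, from 0.30 to 10.70, with a median of 1.80. The median over all 15660 genes with a Nanopore count was −0.07. A 4-fold higher value by Nanopore was reached by 52 members and a 4-fold higher value by Illumina by 0, against 14.1% and 5.1% of all genes with a Nanopore count. The rule used the Nanopore count, and 2 counts against 0 pass 4-fold on this scale (2.58) while 1 count against 0 does not (1.80), so nothing is read from these shares. With pseudocounts of 0.1 and 5 CPM the 52 became 106 and 32. Of the 52, 37 had no Illumina count.

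Position in the genome separated the members from other microRNA genes. All but 1 of the 107 lay within the body of another gene. A containing gene was picked for each from the annotation, without using counts: a gene on the same strand first, then one with an exon around the whole hairpin. By that rule 57 members lay wholly in an exon of a gene on the same strand (exonic), 15 crossed the edge of such an exon (partly exonic), 19 lay in an intron (intronic), and 15 lay only in genes on the opposite strand. With exons of canonical transcripts alone, 33 were exonic. Exonic genes were 53.3% of the members and 12.9% of the microRNA genes without a Nanopore count. Intronic genes were 17.8% and 55.9%. The containing genes were 101 different genes, protein-coding for 94 members and long non-coding RNA (lncRNA) genes for 8.

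The share detected by Nanopore is given by the position of the hairpin and by the Nanopore count of its containing gene. It is a description, since the rule used detection. Where the containing gene had 0 Nanopore counts, 0 of 590 microRNA genes had a count. If reads over a hairpin were also counted for its containing gene, that 0 was fixed in advance. How such reads were assigned is not known, so nothing is read from it. Above 0, the exonic share was 16.5% at 1 to 9 counts and 45.8% at 50 or more. Reads counted for both genes would also raise the containing gene's count, so nothing is read from that rise. Where the containing gene had 10 or more, 41 of 102 exonic genes had a count, 40.2% (exact 95% interval 30.6 to 50.4%), and 11 of 27 partly exonic genes, 40.7% (22.4 to 61.2%). With canonical exons alone the exonic value was 69.0%, 20 of 29. For intronic genes the value was 12 of 252, 4.76% (2.48 to 8.17%). Genes on the opposite strand lay between, at 6 of 39, 15.4% (5.86 to 30.5%).

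**Figure D1:**
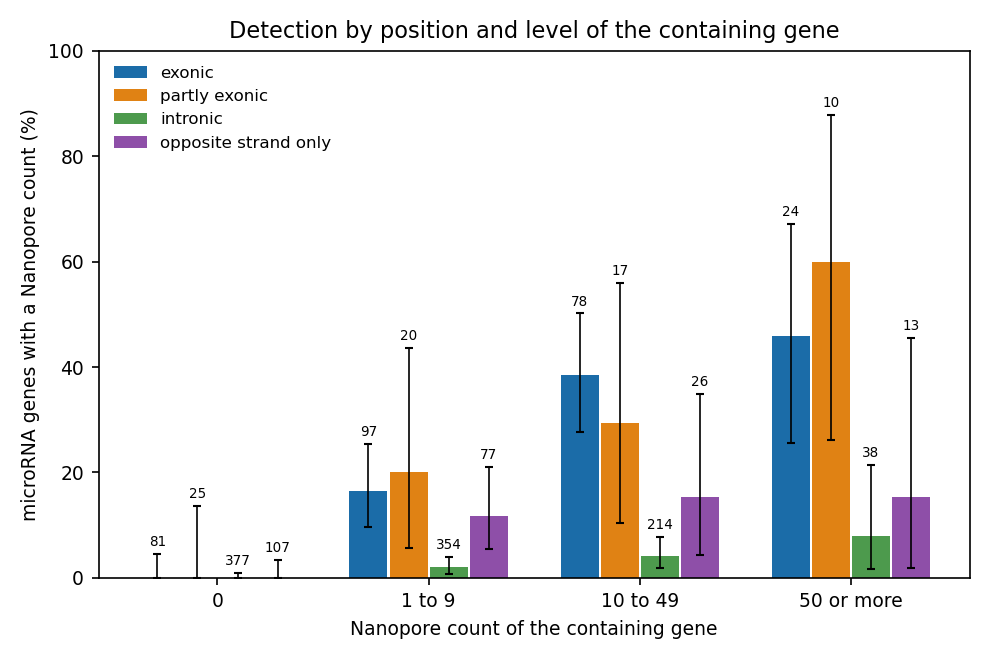
Bars give the share of microRNA genes with at least 1 Nanopore count (y axis, %), by the Nanopore count of the containing gene (x axis) and by position (colour); lines are exact 95% binomial intervals, and the number over each bar counts the microRNA genes. All bars are at 0 where the containing gene had 0 counts, and at 10 to 49 counts the exonic bar stands at 38.5% and the intronic bar at 4.21%.

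The Illumina library showed another order over the same genes. With a containing gene of 10 or more Nanopore counts, 7 of 102 exonic microRNA genes had an Illumina count, 6.86% (exact 95% interval 2.80 to 13.6%), against 66 of 252 intronic genes, 26.2% (20.9 to 32.1%). Partly exonic genes were at 11 of 27, 40.7% (22.4 to 61.2%). So the share detected was higher for exonic than for intronic genes by Nanopore and lower by Illumina. The unknown assignment of reads over both genes bears on this order too, and its part was not tested. The intervals treat genes as independent draws, although some share a containing gene, so nothing is read from whether those of different classes overlap.

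No member exceeded its containing gene by Nanopore: the count was lower in 96 of the 106 members with such a gene and equal in 10. Among genes of other types that lie inside another gene and have a Nanopore count, 2.63% were above it. By Illumina 2 members, MIR1244-2 and MIR1244-3, were above theirs. Whether the same reads were counted for both genes of a pair was not tested. These are raw counts for intervals of unequal length and are compared as such, not as levels per length.

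**Figure D2:**
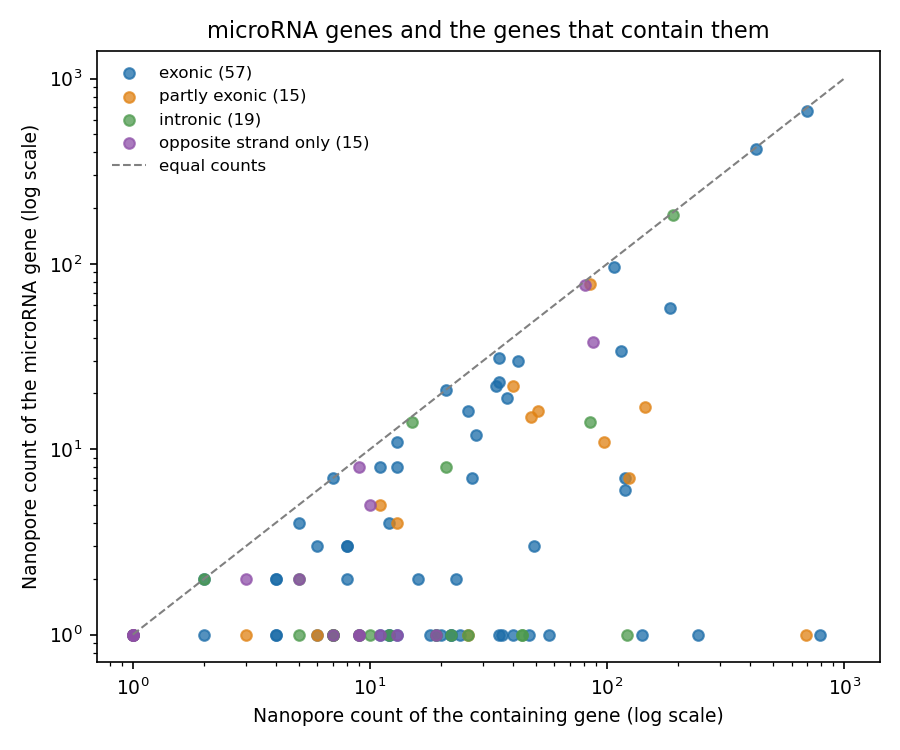
Each point is a member with a containing gene, with the Nanopore count of that gene on the x axis and of the microRNA gene on the y axis (both log scales, colour by position). The dashed line marks equal counts, and the 106 points lie on or below it.

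The highest exonic members by Nanopore count, MIR7705, MIR1244-1 and MIR4709, lay near the 3′ end of abundant mRNAs. The next highest did not: MIR3652, with 58 counts, lay 2636 bases from the end of a transcript of 2782. MIR1181, with 30, lay 1533 bases from the end of a transcript of 1618. MIR7705 (ENSG00000284570, chromosome 8, 100702968 to 100703024, minus strand, hg38) lies in the 3′ untranslated region (UTR) of PABPC1, which encodes a poly(A)-binding protein. It had 672 Nanopore counts, 1667 CPM (95% Wilson interval 1545 to 1797), and 0 Illumina counts, while PABPC1 had 697 and 317737. The Nanopore value was at least 106514-fold above the level of 3 Illumina counts, the floor used for a count of 0. The count of the microRNA gene thus equalled 96.4% of that of PABPC1 by Nanopore and 0% by Illumina.

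MIR1244-1 (ENSG00000284378, chromosome 2, 231713314 to 231713398, plus strand) lies in the 3′ UTR of PTMA, the gene of prothymosin alpha, a small acidic nuclear protein. It had 418 Nanopore and 0 Illumina counts, against 424 and 353334 for PTMA. MIR4709 (ENSG00000283944, chromosome 14, 74480133 to 74480204, minus strand), in the 3′ UTR of the lysosomal cholesterol carrier gene NPC2, had 96 and 0, against 107 and 46975. In both, the Nanopore count was close to the containing gene's, at 98.6% and 89.7%. MIR3198-2 (ENSG00000283803, chromosome 12, 54231397 to 54231476, minus strand), in the 3′ UTR of CBX5, which encodes heterochromatin protein HP1 alpha, had 23 and 0, against 35 and 56794.

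Among exonic members at the start of mRNAs, MIR3652 and MIR1181 had Illumina counts, while MIR4707, MIR6084, MIR4741 and MIR4767 had 0. MIR4687, in the 5′ UTR of STIM1, had 1 Nanopore and 3 Illumina counts. MIR3652 (ENSG00000284503, chromosome 12, 103930425 to 103930555, plus strand) spans the boundary of the UTR and the coding sequence of HSP90B1, the gene of an endoplasmic reticulum chaperone. It had 58 Nanopore and 530 Illumina counts, 143.8 CPM (111.3 to 185.9) and 2.76 CPM, a 52.0-fold higher value by Nanopore, while HSP90B1 had 184 and 216052. Here the count of the microRNA gene equalled 31.5% of the containing gene's by Nanopore and 0.245% by Illumina. MIR1181 (ENSG00000284268, chromosome 19, 10403458 to 10403538, minus strand) spans the same kind of boundary in CDC37, a co-chaperone gene, with 30 and 14 counts against 42 and 27344.

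MIR4444-1 (ENSG00000284252, chromosome 2, 177212726 to 177212799, plus strand) is exonic in HNRNPA3, an RNA-binding protein gene, with 6 of its 74 bases in an exon of the canonical transcript. It had 34 Nanopore and 0 Illumina counts, against 114 and 161035 for HNRNPA3. MIR3654 (ENSG00000284135, chromosome 7, 133034860 to 133034915, minus strand) lies in the processed pseudogene ENSG00000283041, with 31 and 0 counts against 35 and 35300. That pseudogene lies inside CHCHD3, a mitochondrial protein gene with 61 and 23977 counts. Counts in a processed pseudogene are uncertain, since reads of a near-identical parent gene may be placed there.

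The full range of exonic members was wide. Their Nanopore count was 25.9% of the containing gene's at the median (quartiles 5.56 and 64.7%), from 0.126 to 100%. That median depended on the members kept: it was 8.70% for containing genes of 10 or more counts, 50% with canonical exons alone and 65.2% for members of 5 or more counts. MIR4647 equalled SLC35B2, a nucleotide-sulfate transporter gene, at 21 counts each, whereas MIR6805 had 1 count in RPL28, a ribosomal protein gene with 793. MIR3620 in ARF1 and MIR6787 in SLC16A3 likewise had 1 count against 243 and 141. The median Illumina share was 0%, and 6 of the 57 had an Illumina count. A count of at least 50% of the containing gene's was held by 13 of the 41 exonic members whose containing gene had 10 or more counts, 31.7%. For genes of other types in an exon of such a gene on the same strand, it was 15.2% of 112 genes with a Nanopore count. Over all positions it was 19 of 70 members, 27.1%, and 43.5% of 1219 genes of other types with a Nanopore count. The rule used the members' counts, so nothing is read from these shares.

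**Figure D3:**
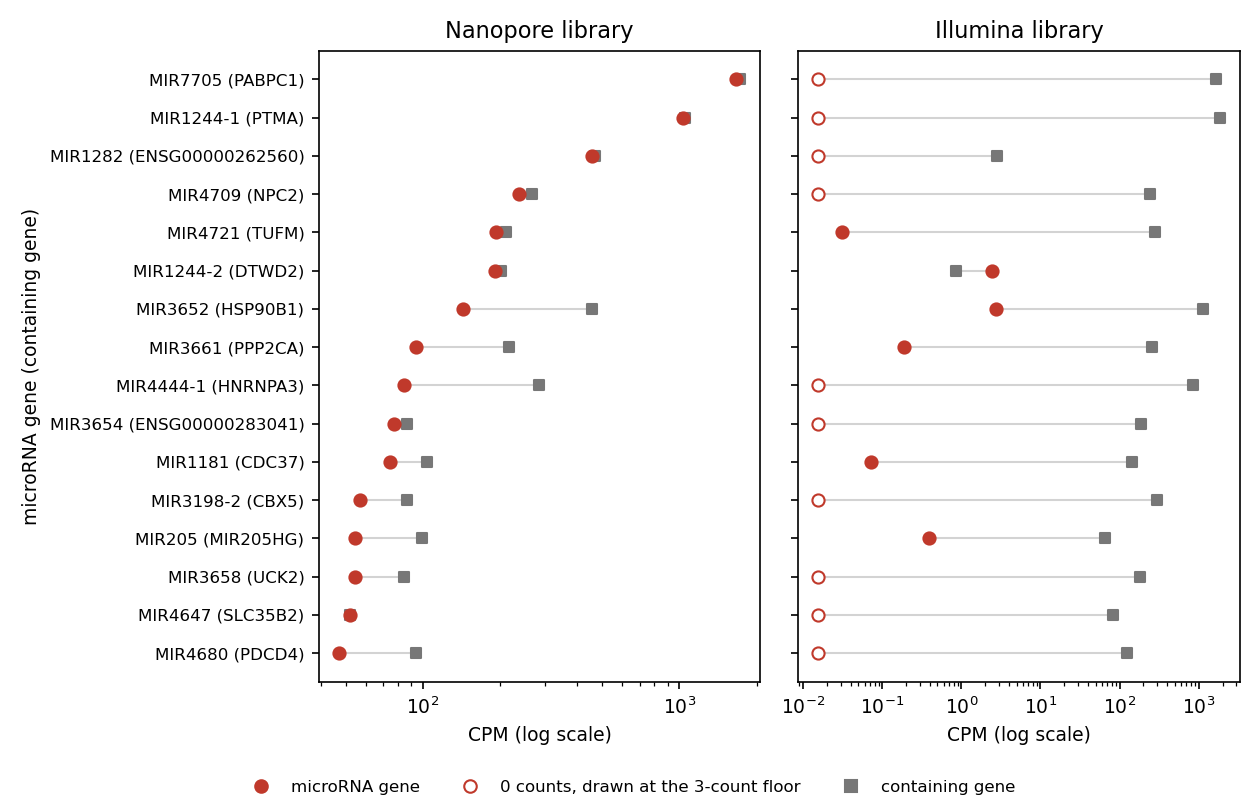
For the 16 members with the highest Nanopore count, circles give the CPM of the microRNA gene and grey squares the CPM of its containing gene (x axis, log scale), by Nanopore (left) and Illumina (right). Open circles are counts of 0 drawn at the floor of 3 counts, 0.0156 CPM. Circles sit close to the squares by Nanopore for the highest 6, and left of the squares by Illumina except for MIR1244-2.

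Distance to the 3′ end of the transcript ordered the share of the containing gene's Nanopore count. It was measured along the spliced canonical transcript for the 29 microRNA genes, members or not, that lie wholly in one of its exons and whose containing gene had 10 or more counts. Within 1000 bases of the end, 8 of 11 were detected and the median share was 72.7%. From 1000 to just under 2000 bases 3 of 5 were detected, with a median of 50%. At 2000 bases or more 9 of 13 were detected, with a median of 5.26%. Spearman's rho between distance and share was −0.52 over these 29 genes, a description across genes of 1 library that differ in length and depth.

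The nearest 5 by distance were MIR7705 (52 bases), MIR4647 (105), MIR1244-1 (153), MIR4709 (193) and MIR3654 (253), with shares between 88.6 and 100%. At intermediate distances, MIR1825 in POFUT1, an O-fucosyltransferase gene, had 8 of 11 counts (811 bases), and MIR4680 in PDCD4, a translation inhibitor gene, had 19 of 38 (1851 bases). MIR4707 in HAUS4, a spindle protein gene, had 11 of 13 (1445 bases), and MIR6084 in PINK1, a mitochondrial kinase gene, had 12 of 28 (2326 bases). Departures occurred on both sides. MIR3658 in UCK2 and MIR198 in FSTL1 lay 3642 and 3375 bases from the end and still had 64.7 and 61.5%, from 22 of 34 and 16 of 26 counts. MIR21, the widely studied oncogenic microRNA gene in the 3′ UTR of VMP1, lay 918 bases from the end and had 0 counts in both libraries, against 50 and 25847 for VMP1. MIR1539, 498 bases from the end of ENSG00000265496, had 0 counts in both libraries, against 788 and 62 for that gene. The 788 was the highest Nanopore count of a containing gene of the 29, and whether those reads came from ENSG00000265496 was not tested. MIR612 in the lncRNA gene NEAT1 and MIR197 in GNAI3 had 0 against 15 and 31, at 983 and 1228 bases. MIR195 and MIR497, both in MIR497HG, also had 0 Nanopore counts, against 23 for that gene.

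**Figure D4:**
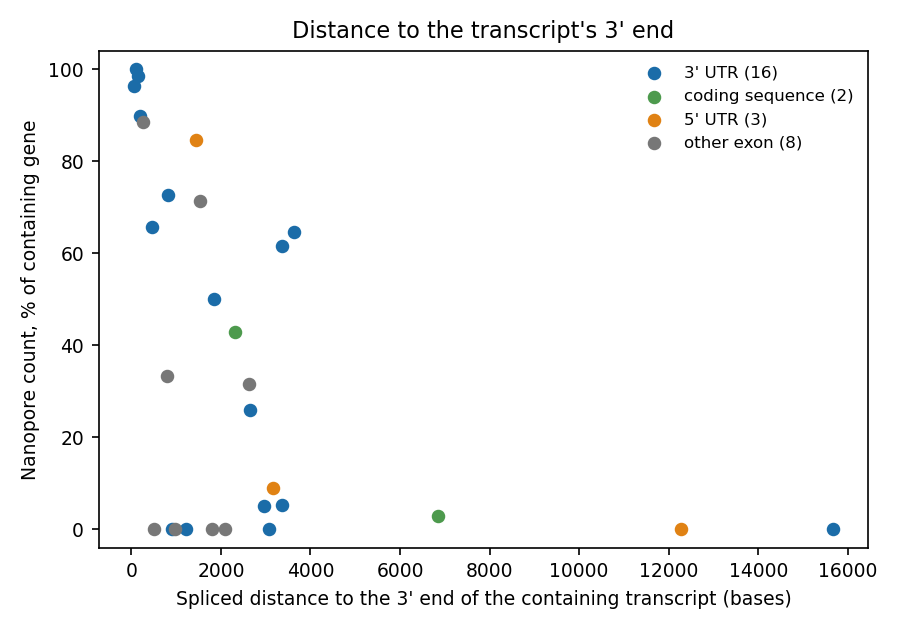
Each point is a microRNA gene in an exon of the canonical transcript of a gene with 10 or more Nanopore counts (29 genes). The x axis is the spliced distance in bases from the hairpin to the transcript's 3′ end and the y axis the Nanopore count as a percent of the containing gene's; colours give the transcript region. Values near 100% occur only at the left, and 9 points lie at 0.

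By region of the canonical transcript, 15 exonic members lay in a 3′ UTR and held 1315 Nanopore counts. Of the others, 4 lay in a 5′ UTR with 14 counts, 6 in coding sequence with 22, 4 across a boundary of coding sequence and UTR with 94, and 3 in a transcript with no coding sequence with 33. A further 25 lay wholly in an exon of another transcript and not wholly in one of the canonical transcript, with 85 counts. Of these, 5 had some bases in a canonical exon, with 46 counts, and 20 had none, with 39. Their median share of the containing gene was 5.88%, against 64.7% in the 3′ UTR. None of the 15 members in a 3′ UTR had an Illumina count.

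Hairpins that share bases with a splice site are known as splice-site-overlapping microRNAs. The 15 partly exonic members crossed an exon edge of any annotated transcript, and whether each edge is a splice site was not checked. Of these 15 members, 11 crossed the 5′ edge of an exon, 6 the 3′ edge and 2 both, with between 4 and 142 exonic bases. The hairpins of MIR4721, MIR3940 and MIR205 (RefSeq, GRCh38.p14) are printed to show the edge, with bases in an exon of the containing gene in capitals.
MIR4721 in TUFM (chr16:28843919-28844007, minus strand): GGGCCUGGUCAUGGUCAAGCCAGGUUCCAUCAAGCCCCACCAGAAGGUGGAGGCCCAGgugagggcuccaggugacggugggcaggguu
MIR3940 in KHSRP (chr19:6416410-6416511, minus strand): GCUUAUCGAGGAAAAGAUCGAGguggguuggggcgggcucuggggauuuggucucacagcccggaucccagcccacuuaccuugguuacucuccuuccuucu
MIR205 in MIR205HG (chr1:209432133-209432242, plus strand): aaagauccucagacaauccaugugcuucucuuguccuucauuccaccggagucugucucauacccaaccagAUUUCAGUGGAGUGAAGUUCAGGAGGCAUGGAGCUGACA

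MIR4721, with 58 exonic bases at the end of a coding exon of TUFM, the gene of the mitochondrial elongation factor Tu, had 78 Nanopore and 6 Illumina counts. TUFM had 85 and 53993, so the share was 91.8% by Nanopore and 0.0111% by Illumina. MIR3940 had 15 and 0 counts with 22 exonic bases, against 48 and 37935 for KHSRP, an RNA-binding protein gene. MIR3917 in STMN1, a microtubule regulator gene, had 17 and 0 against 144 and 90245, and MIR639 in TECR, a fatty acid elongation gene, had 16 and 10 against 51 and 24567. MIR639 also overlaps an exon of DNAJB1, a heat shock protein gene on the opposite strand (63 and 22625). Over the 15, the median share was 30.8% by Nanopore, and 8 had Illumina counts.

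MIR205 was the single member among 28 EMT-linked microRNA genes listed for this comparison. Members were 5.70% of all 1877 microRNA genes in the tables, so nothing is read from that number. The mature microRNA is known as a repressor of ZEB1 and ZEB2 and is typical of basal epithelium. MIR205 had 22 Nanopore counts, 54.6 CPM (36.0 to 82.6), and 74 Illumina counts, 0.386 CPM, a 141.4-fold higher value by Nanopore. Its host MIR205HG had 40 and 12403. The hairpin's last 39 bases, which hold all but the first base of the 3p strand, lie in an exon of a MIR205HG transcript other than the canonical one, and the 5p strand lies outside that exon.

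Of the remaining 27 listed genes, 3 had Illumina counts: MIR221 (87), MIRLET7A2 (12) and MIR222 (10). With MIR205 that made 4 of the 28, where 191 of all 1877 microRNA genes had an Illumina count. The miR-200 family genes MIR200A, MIR200B, MIR200C, MIR141 and MIR429 had 0 counts in both libraries, and MIR200CHG, which contains MIR200C and MIR141, had 0 Nanopore and 750 Illumina counts. MIR100HG, host of MIR100, MIR125B1 and MIRLET7A2, had 6 and 4932. At this depth a count of 0 by Nanopore does not show that a host transcript was absent.

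MIR3655 in IK, a splicing factor gene, had 11 Nanopore and 32 Illumina counts, against 97 and 37849, and MIR5006 in VWA8 had 5 and 0, against 11 and 4475. MIR1307 in ATP5MK, an ATP synthase subunit gene, had the highest Illumina count of the partly exonic members, with 7 Nanopore and 228 Illumina counts, against 124 and 27657 for ATP5MK, which is 5.65 and 0.824%.

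Most intronic members had a single Nanopore count: 13 of 19 had exactly 1, against 54 of all 107 members. The highest, MIR1282 (ENSG00000221792, chromosome 15, 43793659 to 43793759, minus strand), had 184 Nanopore and 0 Illumina counts. Its containing gene on the same strand, ENSG00000262560, had 189 and 545. The hairpin also overlaps an exon of SERF2 on the opposite strand, which had 220 and 108511. MIR762 was alike, with 14 and 0 counts in an intron of MIR762HG (15 and 382) and over an exon of BCL7C on the opposite strand (17 and 4677). ENSG00000278791 on chromosome 1 (632325 to 632413, minus strand), with 14 and 0 counts, overlaps an exon of MTCO1P12, a nuclear copy of the mitochondrial MT-CO1 gene, on the opposite strand (43 and 5672).

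Counting exons of any gene on either strand, 92 of the 107 members overlapped one, 86.0%, against 368 of the 1770 microRNA genes without a Nanopore count, 20.8%. Of the 53 members with 2 or more counts, 51 did. The remaining 2 were MIR1244-2 and MIR1244-3. Of the 15 members with no exon overlap, 13 had exactly 1 Nanopore count.

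Among intronic members, ENSG00000280968 in AP1B1 had 1 Nanopore and 351 Illumina counts, against 26 and 21645 for AP1B1, and it overlaps the small nucleolar RNA gene SNORD125 (1 and 0). ENSG00000221184 in CCAR1 had 1 and 43, against 10 and 17554. MIR632 in ENSG00000265794 had 8 and 20, against 21 and 3577, and overlaps an exon of ZNF207 (46 and 34431).

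The 15 members inside genes on the opposite strand only were led by MIR1244-2 and MIR3661. MIR3661 (ENSG00000266751, chromosome 5, 134225757 to 134225852, plus strand) overlaps an exon edge of PPP2CA, the gene of the protein phosphatase 2A catalytic subunit. It had 38 Nanopore and 36 Illumina counts, a 501.9-fold higher CPM by Nanopore, against 87 and 49389 for PPP2CA. It also overlaps an exon of ENSG00000272772, on the opposite strand as well, with 231 and 9556. MIR3615 inside SLC9A3R1-AS1 had 8 and 2 counts, against 9 and 846, and overlaps an exon of NHERF1 on its own strand (20 and 12425). MIR3610 in RAD21-AS1 had 5 and 0, against 10 and 168, with RAD21, a cohesin gene on its own strand, at 84 and 55584.

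The other members of that class had few counts. MIR3195 in TAF4 and MIR6720 in FOXF2 had 2 Nanopore counts each, and MIR548AA1 in ATAD2 and MIR328 in ELMO3 had 1 each, with 0, 0, 9 and 2 Illumina counts. Reads of a gene and its antisense partner cannot be told apart where strand was not used, and the strand setting of the Nanopore counting is not given in the sources used here. MIR5703, the member with no containing gene, had 1 and 0 counts and overlaps an exon of AGFG1 (16 and 11255) in part.

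The miR-1244 genes carry identical hairpins at 4 places. MIR1244-1, in PTMA, had 418 Nanopore and 0 Illumina counts. MIR1244-2 (ENSG00000283498, chromosome 5, 118974586 to 118974670, plus strand), in an intron of DTWD2 on the opposite strand, had 77 and 475. MIR1244-3 (chromosome 12, 9239467 to 9239551, minus strand), in the pseudogene A2MP1, had 2 and 163, and MIR1244-4 (chromosome 12, 12111952 to 12112036) had 0 and 4. So the copy inside the PTMA exon held the most Nanopore counts and no Illumina count, while the other 3 all had Illumina counts.

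The surroundings of these copies also resemble PTMA mRNA. The hairpins were aligned with 600 bases on each side to the canonical PTMA transcript. MIR1244-2 matched it over 830 bases at 98.9% identity, MIR1244-3 over 837 at 96.2% and MIR1244-4 over 830 at 96.3%. Counts of the 4 genes are therefore uncertain, since reads of PTMA could be placed at any of them. DTWD2, a tRNA-modifying enzyme gene, had 81 and 166 counts, which is 6.76 as a log2 ratio, and the Nanopore count of MIR1244-2 was 95.1% of its own.

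Likewise MIR4444-1 in HNRNPA3 had 34 Nanopore and 0 Illumina counts, and its identical copy MIR4444-2 on chromosome 3 had 0 and 491. The surroundings of MIR4444-2 matched the HNRNPA3 transcript over 606 bases at 99.8% identity.

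Members sharing a containing gene were few. DDX5, an RNA helicase gene of the DROSHA complex, holds MIR3064 (7 and 0 counts) and MIR5047 (6 and 2), against 119 and 104859. In BBC3, which encodes the cell death factor PUMA, MIR3190 and MIR3191 lie on opposite strands of overlapping bases with 1 Nanopore count each, and BBC3 also had 1. MIR548AA1 and MIR548D1 in ATAD2 form another such pair, with 1 Nanopore and 9 Illumina counts each. Paired values of this kind are not independent.

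The machinery that makes and uses microRNAs was present in both libraries with most of its genes at a lower CPM by Nanopore than by Illumina. From a list of 26 genes, 23 had Nanopore and 25 had Illumina counts, against 26.7% and 46.5% of all genes in the tables. Of the 23 with a mean of at least 5 CPM, 0 were 4-fold higher by Nanopore and 2 were 4-fold higher by Illumina, against 12.9% and 8.14% of all 12414 genes at that level. The list's median log2 ratio was −0.98, where the median of all those genes was −0.42, and 20 of the 23 were below 0, as were 63.2% of all those genes. The 2 past 4-fold were TNRC6A, a partner of Argonaute in silencing, at −2.65 (3 and 9941 counts), and DROSHA at −2.47 (4 and 11404 counts).

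Next lowest was DDX17, an RNA helicase gene of the DROSHA complex, at −1.81. The highest were PRKRA, a DICER1 partner, at 0.74 (25 and 7053 counts), TUT4, a uridylyltransferase gene, at 0.37, and DIS3L2, an exonuclease gene, at 0.01. DGCR8 was at −1.50 (4 and 5746 counts), XPO5 at −1.15 (13 and 13992), AGO2 at −0.98 (14 and 13281) and DICER1 at −0.60 (7 and 5144). DGCR8 itself contains a member, MIR1306, with 2 Nanopore and 4 Illumina counts in its exon. Over the 106 members with a containing gene, that gene's median log2 ratio was −0.42. Of the 101 different containing genes, 8 were 4-fold higher by Nanopore and 2 by Illumina, against 14.1% and 5.1% of all genes with a Nanopore count. The members inside them were chosen by Nanopore count, so nothing is read from these shares.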

How the data were processed

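Per the labels, 1 direct RNA library and 1 stranded mRNA library were made from MCF10a-Snail-ER cells. The authors deposited raw whole-number counts per Ensembl gene for each (403235 and 191741714 in all). The submitters' processing notes name minimap2 2.11-r797, HISAT2 2.1.0, featureCounts and hg38. The annotation release, feature type (exon or whole gene), strand setting and handling of reads over several genes are not given in the sources used here. Names, types, exons and coordinates came from GENCODE release 44 (hg38), which held 58207 of the 58735 identifiers.

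Counts were scaled to CPM by library total, and ratios are log2 with a pseudocount of 1 CPM. With 1 library per platform no test was made; called means past 4-fold, and TMM scaling used edgeR 4.0.16. Intervals are 95% Wilson for shares of a library and exact (Clopper-Pearson) for shares of genes. They and the 3-count floor cover counting error only, because each platform has 1 library. If PCR copies in the Illumina library were counted as separate reads, they add error that the intervals do not cover. Flanks were aligned with BLAST+ 2.17.0. The position classes were tested on a toy annotation. The members and lists were chosen with earlier results of these data known. Genes were named by a rule: the 8 highest Nanopore counts in each position class (intronic and partly exonic taken as 1 class), the 8 highest Illumina counts, members on the EMT list, and their containing genes; from the machinery list, the 3 highest and 3 lowest ratios and DROSHA, DGCR8, DICER1, XPO5 and AGO2. Other genes in the text, those nearest to or far from a transcript's end and those sharing a sequence or containing gene among them, were chosen after their values were seen.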

Additional observations from a re-analysis of the deposited data

How the results depend on the processing

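With a minimum Nanopore count of 2 or 5, the members numbered 53 or 36 in place of 107, and with a minimum of 10 Illumina counts 15 in place of 27 had an Illumina value. The number 4-fold higher by Nanopore went from 52 to 106 with a pseudocount of 0.1 CPM and to 32 with 5 CPM; TMM and median-ratio scaling left it at 52, and 0 members were 4-fold higher by Illumina in each case. Median-ratio scaling shifts all ratios up by 0.13 (log2). Exonic members fell to 33 with exons of the canonical transcript only, and 92 had a base in an exon of any gene on either strand, an alternative chosen after seeing the data. The median Nanopore share of exonic members (25.9%) was 25% with the containing gene of highest count, 65.2% at 5 or more counts, 50% with canonical exons and, added after seeing the data, 8.70% with containing genes of 10 or more counts, so it rests on that choice. The intronic median (11.1%) was 7.69% with canonical exons and 65.7% at 5 or more counts. That last value rests on MIR1282, MIR762, ENSG00000278791 and MIR632 alone, each of which overlaps an exon of another gene. Detection of exonic genes in containing genes of 10 or more counts (40.2%) rose to 69.0%, 20 of 29, with canonical exons. The machinery list's median of −0.98 was −1.06 and −0.88 with pseudocounts of 0.1 and 5 CPM, −0.90 with TMM, −0.87 with median-ratio scaling and −0.96 without the filter. The causes were not tested. No paired analysis was possible because each group has 1 library, which also leaves no replicate to omit.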

Other observations

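A further 164 microRNA genes had Illumina counts and 0 Nanopore counts, 3662 Illumina counts in all with a median of 6. Of these, 119 were intronic, 72.6%, and 9 were exonic, 5.49%. Of all 1770 microRNA genes without a Nanopore count, 55.9% were intronic and 12.9% exonic. The highest was MIR621 with 773 counts, 4.03 CPM, in an exon of SLC25A15 (1 Nanopore and 2781 Illumina counts), followed by MIR4444-2 with 491. MIRLET7D, of the let-7 family that restrains proliferation, had 209 in MIRLET7A1HG (1 and 607). MIR25, of the miR-106b cluster, had 200 in an intron of MCM7, a replication helicase gene (52 and 65783). At their Illumina CPM, 0 of the 164 would reach 3 Nanopore counts, so at this depth their Nanopore counts of 0 show no difference between the libraries. These genes were chosen after their values were seen.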
